A study of Homo sapiens with 12 samples.

Results

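The genes described here are those of MHC class I antigen presentation, 10 in the list: B2M, HLA-E, HLA-F, TAP1, TAP2, TAPBP, NLRC5, ERAP1, ERAP2 and CD274. A gene was read where a transcript cluster, the set of probes that the array summarises into 1 value, carried its symbol alone in the probe annotation. Of several such clusters, the brightest on average was used. By this rule 9 of the 10 genes were measured, out of 17958 genes in all, and HLA-E was not analysed here because its 3 clusters carried a second symbol as well. TAP1, TAP2, TAPBP and HLA-F had 3 clusters each, and those of TAP1 held the same values.

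The cells were BT549, a triple-negative breast cancer cell line with mesenchymal features, transfected in 4 ways with 3 biological replicates each. The series' design text gives a medium free of antibiotics for these transfections, and the study's methods give penicillin-streptomycin in the routine medium of the line. ERβ2 is a splice variant of estrogen receptor β with a different C-terminus. One group received a pcDNA3 plasmid with FLAG-tagged ERβ2 cDNA, and its control received the empty vector (EV). Both were transfected transiently with a cationic lipid reagent and collected at 24 h. Another group received siRNA against ERβ2, and its control received control siRNA, both with INTERFERin at lower confluency and collected at 48 h. The study's methods name more than 1 set of siRNA against ERβ2 and do not say which was used for the arrays. RNA of each culture was hybridised to 1 Affymetrix Human Gene 1.1 ST array, and values are given on the log2 scale, where a difference of 1 is a doubling of signal. Between genes, brightness is compared only in the check of labels and for low signals, as a rough guide that depends on the probes. A level is relative to the RNA of the whole culture. A change in some cells and a change in all cells therefore cannot be told apart.

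MHC class I molecules show peptides from inside the cell to cytotoxic T cells. Proteasomes cut proteins into peptides, the TAP transporter moves these into the endoplasmic reticulum, aminopeptidases trim them, and a loading complex fits them onto a heavy chain paired with β2-microglobulin. Interferons raise many genes of this route, and they raise CD274, which encodes PD-L1, a surface ligand that restrains T cells through PD-1. Factors of the IRF and STAT families act on such genes through short promoter elements, among them the interferon-stimulated response element (ISRE) and the gamma-activated site (GAS).

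The ISRE is therefore shown for the genes whose promoter holds it. RefSeq promoters (assembly GRCh38.p14, 250 bases before to 50 after the start site) were matched by symbol for 8 of the 9 measured genes, all but NLRC5. The ISRE was searched as GAAA, any 2 bases, then GAAA, on both strands. It stood in 7 of the 8, all but ERAP2, and in 3.65% of all 27305 promoters. In the following stretches, read 5′ to 3′ in the direction of the gene, capitals mark the ISRE, which appears as TTTC repeats where it lies on the opposite strand.

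B2M (chr15:44711353-44711408, plus strand): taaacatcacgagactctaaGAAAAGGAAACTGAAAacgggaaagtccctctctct
HLA-F (chr6:29723258-29723307, plus strand): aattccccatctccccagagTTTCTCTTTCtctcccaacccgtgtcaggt
TAP1 (chr6:32853803-32853858, minus strand): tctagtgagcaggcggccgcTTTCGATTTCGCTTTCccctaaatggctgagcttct
TAP2 (chr6:32838768-32838817, minus strand): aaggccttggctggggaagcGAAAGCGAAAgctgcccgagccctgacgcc
TAPBP (chr6:33314079-33314118, minus strand): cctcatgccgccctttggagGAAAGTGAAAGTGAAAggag
ERAP1 (chr5:96807934-96807963, minus strand): tgccgctccccgggctccacTTTCACTTTC
CD274 (chr9:5450314-5450369, plus strand): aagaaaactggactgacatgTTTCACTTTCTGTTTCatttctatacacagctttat

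In B2M, TAP1, TAPBP and CD274 the stretch held 2 overlapping matches, that is GAAA repeated at an even spacing. Counted from the start site, the first base of a match stood at position 3 in ERAP1 and at positions from −208 (CD274) to −14 (TAPBP) in the other genes. The shorter IRF element, searched as AANNGAAA, is contained in the ISRE pattern, so each ISRE shown also holds it. Its presence in the same 7 of 8 promoters therefore adds nothing to the ISRE count. It was in 23.2% of all promoters. The NF-κB element, searched by its usual consensus on both strands, was in 4 of 8 (B2M, TAP1, TAPBP and ERAP1) and in 5.72% of all. GAS, searched as TTCNNNGAA, was in CD274 alone among the 8 and in 7.88% of all. These are matches of letters and not measured sites.

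**Figure D1:**
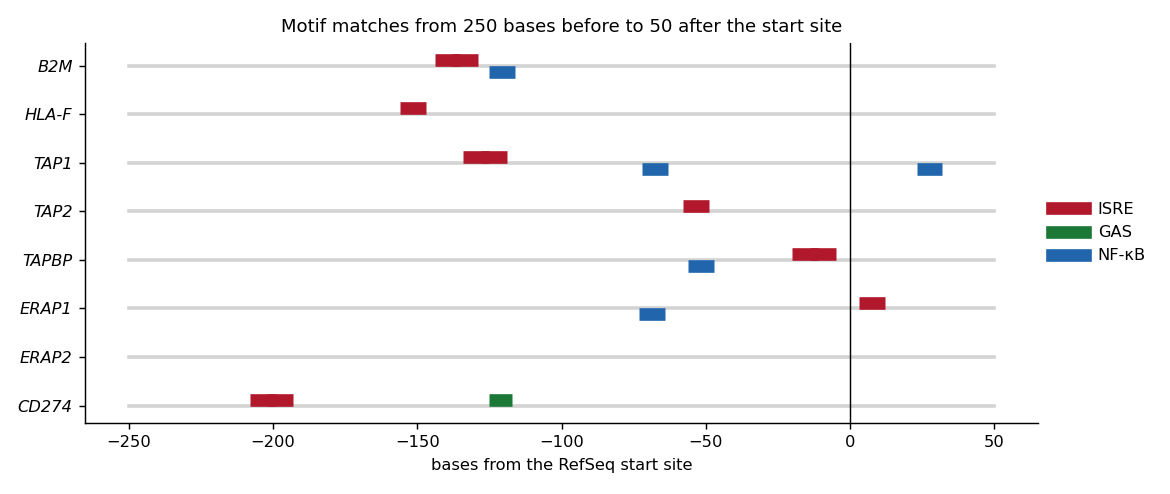
Matches to the ISRE (red), GAS (green) and NF-κB element (blue) in the RefSeq promoters of 8 genes; the x axis is the distance in bases from the start site (black line). The ISRE is in 7 of 8 promoters, the NF-κB element in 4 and GAS in CD274 alone.

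Before the results, the labels were checked on the arrays. VIM, CDH2, FN1 and SPARC, genes of mesenchymal cells, were brighter than 81.6% to 99.6% of genes, and EPCAM, CDH1, ESR1 and PGR, genes of luminal epithelium, were brighter than 10.1% to 20.2%. The epithelial keratins were not all dim, with KRT18 brighter than 91.4% of genes, KRT8 than 61.3% and KRT19 than 39.9%, and the receptor gene ERBB2 was brighter than 68.2%. Of 9 leukocyte genes, 8 were dimmer than the median gene (PTPRC, which marks all leukocytes, was brighter than 9.5%), and CD68 was brighter than 95.4%. The mean log2 level of the 9 leukocyte genes lay at 4.88 to 5.00 in the ERβ2 plasmid arrays, 4.90 to 4.96 in the EV arrays, 4.78 to 4.86 in the ERβ2 siRNA arrays and 4.74 to 4.86 in the control siRNA arrays. That of the 5 epithelial genes lay at 5.63 to 6.06 with ERβ2 plasmid, 5.75 with EV on all 3 arrays, 6.64 to 6.70 with ERβ2 siRNA and 6.20 to 6.33 with control siRNA. That of the 4 mesenchymal genes lay at 11.18 to 11.22 with ERβ2 plasmid, 11.17 to 11.22 with EV, 10.98 to 11.03 with ERβ2 siRNA and 10.90 to 10.95 with control siRNA. Both sets thus separated EV from control siRNA and ERβ2 siRNA from control siRNA without overlap, and the part of these shifts in the class I values was not tested.

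ESR2, which encodes all ERβ isoforms, had log2 values of 4.35, 4.72 and 4.37 with ERβ2 plasmid, against 4.08, 3.93 and 4.01 with EV. The arrays did not overlap, and the change of 0.47 (95% confidence interval 0.24 to 0.71) did not pass after adjustment over all genes (adjusted p = 0.449 from limma). It had 4.12, 3.99 and 3.8 with ERβ2 siRNA, against 4.03, 3.88 and 4.05 with control siRNA, which overlap (−0.02, adjusted p = 0.913 from limma). The siRNA effect minus the plasmid effect was −0.49 (adjusted p = 0.0328 from limma). The ESR2 values thus went the way of the plasmid label and gave no check of the siRNA label. Apart from the arrays, the study reports less ERβ2 mRNA with the siRNA in BT549 by qPCR. It also reports more ERβ2 protein with the plasmid by Western blot.

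The widest separation of class I genes was between the plasmid and the siRNA transfections. For all 9 genes each of the 6 plasmid arrays (ERβ2 plasmid and EV) lay above each of the 6 siRNA arrays, an order found for 10.1% of all genes. The controls of both experiments, EV and control siRNA, carry no ERβ2 manipulation and differ in nucleic acid, reagent, cell density and time after transfection, which cannot be told apart here. Between them all 9 genes passed the test and were higher with EV, against 19.2% of all genes (adjusted p of at most 0.1 from limma). With a fold of at least 1.5 as well, 8 of the 9 were called higher, against 5.57% of all genes. The median log2 change of the 9 genes was 1.45, and that of all genes −0.06.

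**Figure D2:**
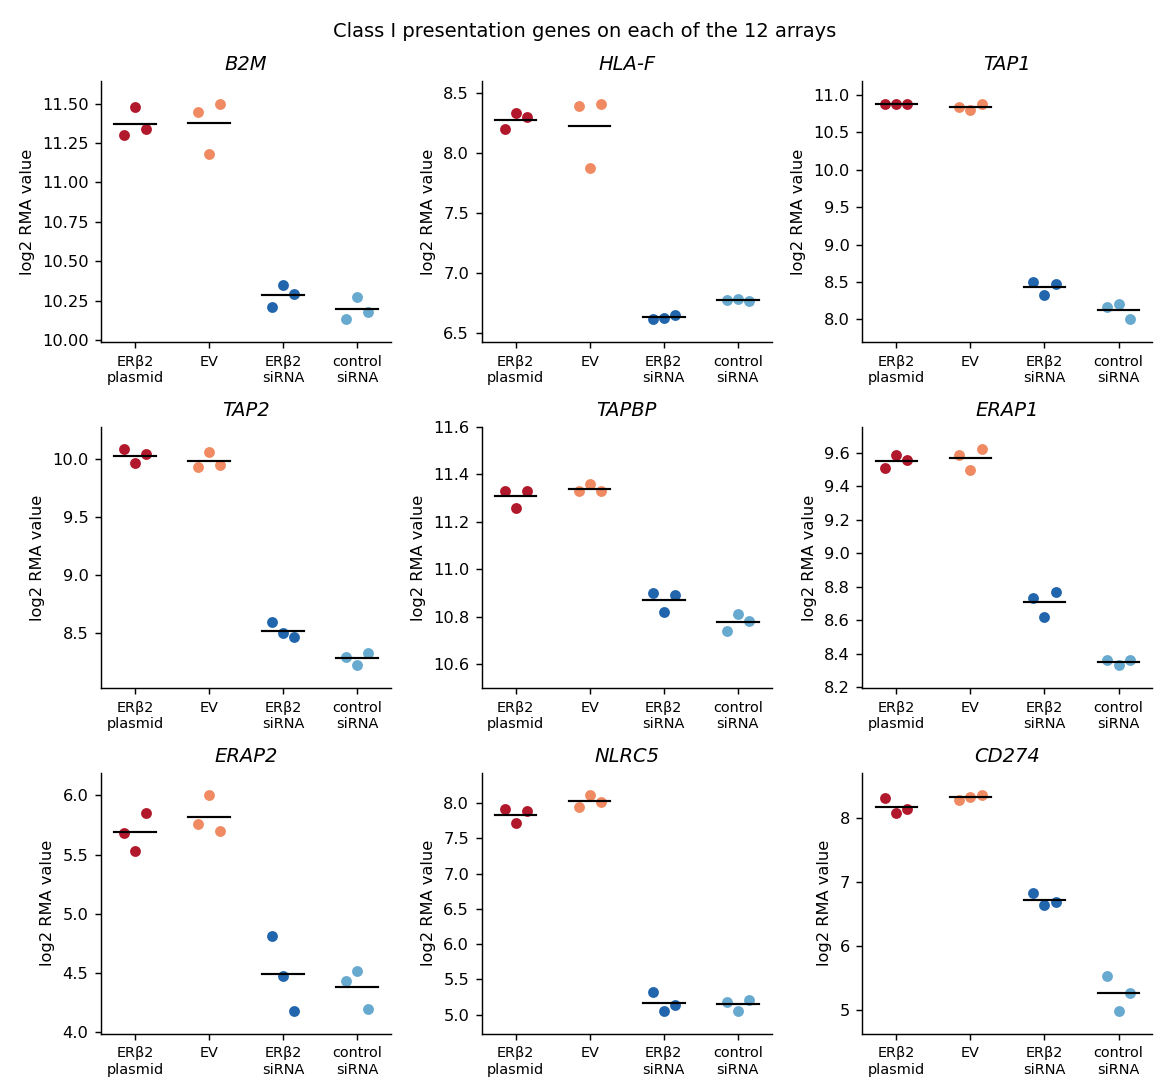
Log2 RMA value (y axis, scaled for each gene) of the 9 measured genes on each array, by group; points are arrays and bars are group means of 3 arrays. All plasmid arrays lie above all siRNA arrays for each gene, and CD274 also separates ERβ2 siRNA from control siRNA by more than 1 log2 unit.

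Of the light and heavy chains, B2M, which encodes β2-microglobulin, had log2 values of 11.45, 11.18 and 11.50 with EV, against 10.13, 10.27 and 10.18 with control siRNA. The arrays did not overlap, and the change was 1.18 ± 0.09 (standard error), 2.27-fold (adjusted p = 3.38e-05 from limma). HLA-F encodes a nonclassical heavy chain. It had 8.39, 7.87 and 8.41 with EV, against 6.77, 6.78 and 6.76 with control siRNA, a change of 1.45 ± 0.13 or 2.74-fold (adjusted p = 8.79e-05 from limma). The second EV array was the lowest of its group for both genes and still stood above each control siRNA array. Class I heavy chain genes are close paralogs, so probes of HLA-F may also read others.

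The transporter genes differed more. TAP1, the first subunit of the peptide transporter, had log2 values of 10.83, 10.80 and 10.88 with EV, against 8.16, 8.20 and 8.0 with control siRNA. The change was 2.72 ± 0.07, 6.57-fold (adjusted p = 2.97e-08 from limma), the 58th largest rise of all genes. TAP2, the other subunit, had 9.93, 10.06 and 9.95 with EV, against 8.29, 8.22 and 8.33 with control siRNA, a change of 1.70 ± 0.07 or 3.25-fold (adjusted p = 3.98e-07 from limma). TAPBP encodes tapasin, which joins the heavy chain to the transporter. It changed least of the 9, with 11.33, 11.36 and 11.33 with EV, against 10.74, 10.81 and 10.78 with control siRNA. Its change of 0.56 ± 0.06 passed the test (adjusted p = 1.50e-04 from limma), and its 1.48-fold was the only one under 1.5-fold.

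ERAP1 and ERAP2 encode the aminopeptidases that trim peptides in the endoplasmic reticulum. ERAP1 had log2 values of 9.59, 9.50 and 9.62 with EV, against 8.36, 8.33 and 8.36 with control siRNA, 2.33-fold higher (adjusted p = 2.19e-06 from limma). ERAP2 had 5.76, 6.0 and 5.70 with EV, against 4.43, 4.52 and 4.20 with control siRNA, 2.71-fold higher (adjusted p = 2.47e-05 from limma). Both genes thus separated the groups without overlap, and the part of promoter elements in these changes was not tested. The control siRNA values of ERAP2 lay below the array median, so its fold rests on a low signal in that group.

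NLRC5, the transactivator of class I genes, and CD274 stood with TAP1 at the top. NLRC5 had log2 values of 7.95, 8.11 and 8.02 with EV, against 5.18, 5.05 and 5.21 with control siRNA, a change of 2.88 ± 0.07 or 7.36-fold (adjusted p = 2.11e-08 from limma). CD274 had 8.29, 8.34 and 8.36 with EV, against 5.54, 4.99 and 5.28 with control siRNA. Its change of 3.06 ± 0.12, 8.34-fold (adjusted p = 5.38e-07 from limma), was the largest of the 9 genes and the 45th largest rise of all genes. Across the alternatives computed for this comparison, each of the 9 genes stayed higher with EV.

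Other genes of the route were taken from lists, whose counts are of genes that passed the same test. The lists, like the members, were chosen with earlier results of these data known, so their counts are descriptive. These counts are read beside the shares of all genes that passed, 19.2% as higher and 22.4% as lower. All 5 immunoproteasome genes rose in the EV arrays relative to control siRNA. The catalytic subunits PSMB9, PSMB8 and PSMB10 changed by 2.34, 1.91 and 1.0 on the log2 scale, and the activator subunit PSME2 by 0.48. Of 13 other class I and class I-like chains, 6 rose and 1 fell. HLA-B changed by 1.79, HLA-C by 1.41 and HLA-G by 1.40, with the limit on paralogs named above, and FCGRT, the neonatal Fc receptor, by 0.42. Of 20 other genes in a mixed list of loading, chaperoning, trimming and further steps, 6 rose and 2 fell. Among them IFI30, a lysosomal thiol reductase that serves antigen processing, changed by 1.86, B3GNT2, a glycosyltransferase, by 1.09, and HSPA5, a chaperone of the endoplasmic reticulum, by 0.30. The cytosolic aminopeptidase NPEPPS fell by 0.30.

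Of 12 class II genes, 7 rose and none fell, with HLA-DRA at 1.48, HLA-DPA1 at 1.32, the invariant chain CD74 at 1.02 and HLA-DOB at 0.98 on the log2 scale. CIITA, the class II transactivator, changed by 0.09 (adjusted p = 0.411 from limma). Of 8 ligands of the NK cell receptor NKG2D, 6 rose and none fell, with RAET1L at 1.08, ULBP3 at 0.53, MICA at 0.48 and ULBP2 at 0.47. Of 18 other checkpoint ligands and receptors, 9 rose and 2 fell. IDO1, which breaks down tryptophan, changed by 3.77, PDCD1LG2, the second ligand of PD-1, by 1.69, and TNFSF9, the ligand of 4-1BB, by 0.97, while ICOSLG, the ligand of ICOS, fell by 0.96.

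Interferon, NF-κB and antiviral genes were read in the same comparison. Of 21 genes of interferon signalling, 13 rose and 2 fell in the EV arrays relative to control siRNA. IFNB1, which encodes interferon β, changed by 3.81 on the log2 scale, USP18, an inhibitor of the type I receptor, by 3.76, IFNL1, a type III interferon, by 2.39, IRF7 by 1.89 and IRF1 by 1.66. All 9 NF-κB genes rose, with the inhibitor TNFAIP3 at 2.43, the subunit REL at 0.89, the inhibitor NFKBIA at 0.83 and NFKBIZ at 0.51. Of 8 genes in a list of promoter factors (RFX and NFY subunits and CREB1) and the histone methyltransferase EZH2, 1 rose (RFX5, 0.24) and 1 fell (NFYA, −0.23). All 28 antiviral genes rose, by 1.95 to 6.81 with a median of 5.30, led by IFI44L (6.81), MX1 (6.48), IFIT1 (6.38) and IFIT2 (6.21). The part of these genes in the class I values was not tested.

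**Figure D3:**
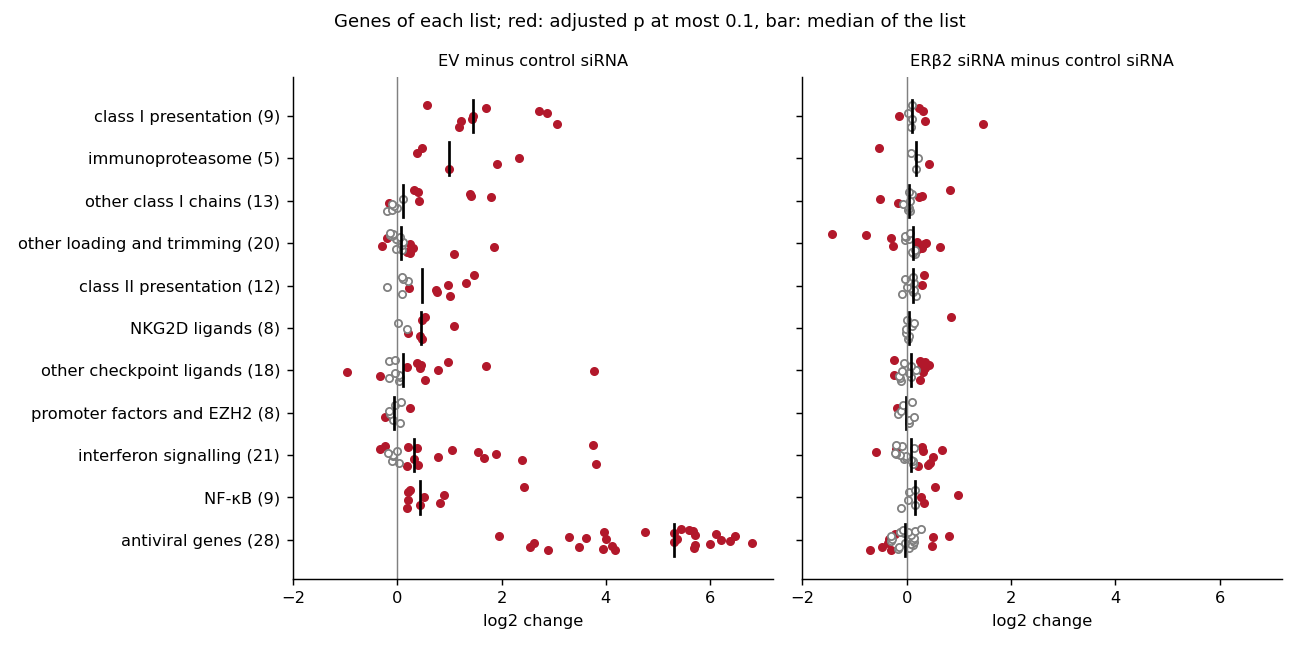
Log2 change (x axis) of each gene of 11 lists, with the number of genes measured in brackets, for EV minus control siRNA (left) and ERβ2 siRNA minus control siRNA (right); red points passed the test, open points did not, and bars are medians. The class I genes have a median of 1.45 on the left and 0.11 on the right, and the antiviral genes 5.30 and −0.04.

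The second question was what ERβ2 siRNA did to these genes at 48 h. This comparison shares its control siRNA arrays with the preceding one. CD274 rose 2.74-fold, the 24th largest rise of all genes, and ERAP1, TAP1 and TAP2 rose by less than 1.5-fold. HLA-F fell slightly, and B2M, TAPBP, ERAP2 and NLRC5 did not pass the test. Thus 4 of 9 genes passed as higher, against 18.3% of all genes, and 1 as lower, against 17.5%. With a fold of at least 1.5 as well, CD274 alone of the 9 was called higher, against 3.25% of all genes. The median log2 change was 0.11 for the 9 genes and −0.03 for all genes.

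CD274 had log2 values of 6.83, 6.64 and 6.70 with ERβ2 siRNA, against 5.54, 4.99 and 5.28 with control siRNA. The groups were more than 1 log2 unit apart at their nearest arrays, and the change was 1.45 ± 0.13 (95% confidence interval 1.16 to 1.74, adjusted p = 9.42e-05 from limma). ERAP1 had 8.73, 8.62 and 8.77 with ERβ2 siRNA, against 8.36, 8.33 and 8.36 with control siRNA, a change of 0.36 ± 0.06 (adjusted p = 0.00268 from limma). TAP1 had 8.50, 8.32 and 8.47 with ERβ2 siRNA, against 8.16, 8.20 and 8.0 with control siRNA, a change of 0.31 ± 0.08 (adjusted p = 0.0167 from limma). TAP2 had 8.59, 8.50 and 8.46 with ERβ2 siRNA, against 8.29, 8.22 and 8.33 with control siRNA, a change of 0.24 ± 0.06 (adjusted p = 0.0206 from limma). For these 4 genes each ERβ2 siRNA array lay above each control siRNA array, but below each plasmid array.

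HLA-F had log2 values of 6.61, 6.62 and 6.65 with ERβ2 siRNA, against 6.77, 6.78 and 6.76 with control siRNA. The arrays did not overlap, and the change was −0.14 ± 0.05 (adjusted p = 0.0700 from limma). This call was lost when 5 of the 6 arrays were left out in turn (adjusted p = 0.131 to 0.156 from limma). Its other clusters did not pass (adjusted p = 0.123 and 0.124 from limma), with adjustment over 33297 clusters rather than 17958 genes. In both of those clusters the groups also did not overlap, and ERβ2 siRNA was lower. TAPBP had 10.90, 10.82 and 10.89 with ERβ2 siRNA, against 10.74, 10.81 and 10.78 with control siRNA, without overlap and without passing the test (0.09, adjusted p = 0.243 from limma). In another TAPBP cluster the groups overlapped, 8.81, 8.72 and 8.84 with ERβ2 siRNA against 8.73, 8.75 and 8.76 with control siRNA. In its remaining cluster they did not overlap. With the clusters used, 5 of the 9 genes had each ERβ2 siRNA array above each control siRNA array, against 21.1% of all genes.

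B2M had log2 values of 10.21, 10.35 and 10.29 with ERβ2 siRNA, against 10.13, 10.27 and 10.18 with control siRNA, with overlap (0.09, 95% confidence interval −0.06 to 0.24). ERAP2 had 4.81, 4.48 and 4.18 with ERβ2 siRNA, against 4.43, 4.52 and 4.20 with control siRNA, and its interval of −0.24 to 0.45 was the widest of the 9. NLRC5 had 5.32, 5.05 and 5.13 with ERβ2 siRNA, against 5.18, 5.05 and 5.21 with control siRNA, a change of 0.02 (95% confidence interval −0.17 to 0.21, adjusted p = 0.882 from limma). NLRC5 values thus overlapped between both siRNA groups, and the part of NLRC5 in the other genes was not tested. On the siRNA arrays ERAP2 lay below the array median and NLRC5 near it. Both were thus read at low signal, and whether a change could be seen at such a level was not tested.

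**Figure D4:**
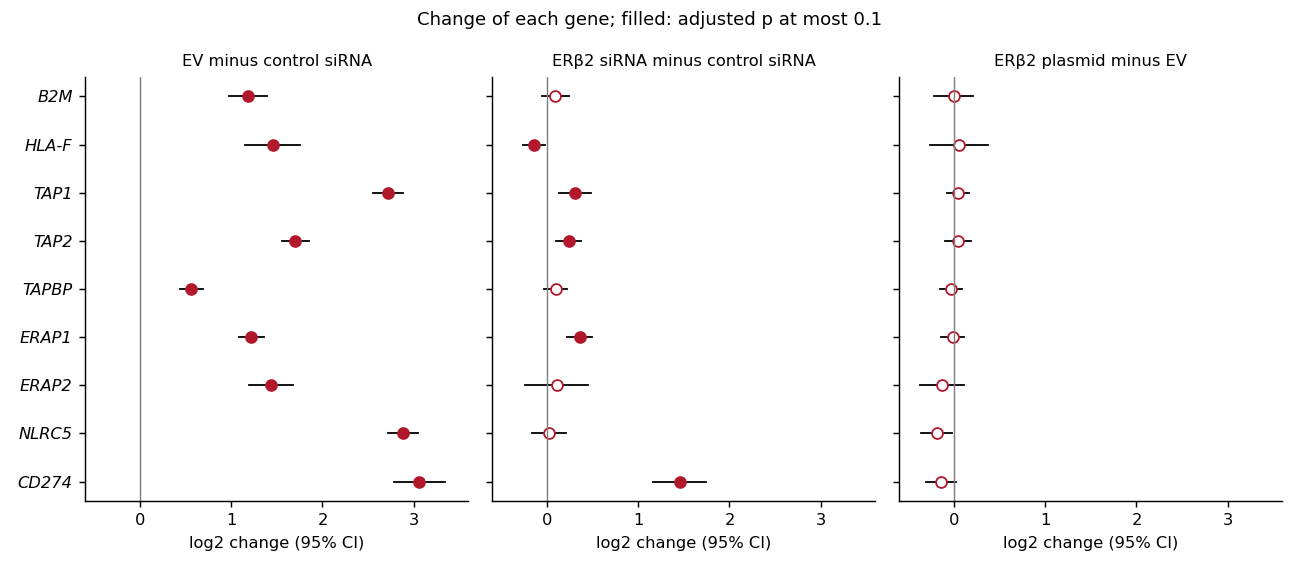
Log2 change of each of the 9 genes with its 95% confidence interval from limma in 3 comparisons; filled points have an adjusted p no higher than 0.1. All 9 passed for EV minus control siRNA, 5 for ERβ2 siRNA minus control siRNA, where CD274 stands at 1.45, and none for ERβ2 plasmid minus EV.

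The same lists were counted with ERβ2 siRNA, where 18.3% of all genes passed as higher and 17.5% as lower. Of the 20 genes in the mixed list of loading, chaperoning, trimming and further steps, 7 rose and 4 fell. TPP2, a cytosolic peptidase, fell by 1.42 on the log2 scale. TMEM127, which is not itself a loading or trimming gene, fell by 0.77. IFI30 rose by 0.64 and the disulfide isomerase PDIA4 by 0.37. Of 5 immunoproteasome genes, PSMB8 rose by 0.43, PSME2 fell by 0.53 and the other 3 did not pass. Of 13 class I and class I-like chains, 3 rose and 2 fell: PROCR, the endothelial protein C receptor, rose by 0.83, HLA-C by 0.28 and HLA-B by 0.23, and HFE, which controls iron uptake, fell by 0.51. Of 12 class II genes, HLA-DRA (0.34) and HLA-DOB (0.28) rose and none fell, and of 8 NKG2D ligands ULBP3 rose by 0.86 and none fell.

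Of 18 other checkpoint genes, 7 rose and 2 fell, with PVR at 0.42, NECTIN2 at 0.34, TNFSF9 at 0.34 and ICOSLG at 0.31. PDCD1LG2, the other ligand of PD-1, changed by 0.09 (adjusted p = 0.257 from limma). Of 28 antiviral genes, 3 rose and 6 fell with a median change of −0.04, MX2 at 0.81, ISG15 at 0.50, CCL5 at −0.71 and CXCL11 at −0.48. Of 21 interferon signalling genes, 7 rose and 2 fell, with the kinase JAK2 at 0.68, IRF2 at 0.51, the receptor subunit IFNGR1 at 0.45 and IRF9 at −0.59. IFNB1 changed by 0.11 (adjusted p = 0.504 from limma) and IRF1 by −0.02 (adjusted p = 0.922 from limma). Of 9 NF-κB genes 4 rose and none fell, REL by 0.99, TNFAIP3 by 0.53, NFKBIA by 0.32 and NFKBIZ by 0.27. Of the same 8 promoter factor and EZH2 genes none rose and RFX5 fell by 0.18.

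The third question was what added ERβ2 did at 24 h. This comparison shares its EV arrays with the first. None of the 9 genes passed the test, and 0.0111% of all genes did (2 genes). At an unadjusted p under 0.05, 1 of the 9 and 1260 of all genes differed, and the t-test of the study's methods with q-values also called none of the 9. No gene of the other lists passed either. CD274 had log2 values of 8.32, 8.08 and 8.15 with ERβ2 plasmid, against 8.29, 8.34 and 8.36 with EV, which overlap (−0.15, 95% confidence interval −0.31 to 0.02). NLRC5, the 1 gene under an unadjusted p of 0.05, had 7.91, 7.71 and 7.89 with ERβ2 plasmid, against 7.95, 8.11 and 8.02 with EV (−0.19, 95% confidence interval −0.36 to −0.02, adjusted p = 0.675 from limma).

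The other class I genes lay close together in both plasmid groups. TAP1 had 10.88 on all 3 ERβ2 plasmid arrays, against 10.83, 10.80 and 10.88 with EV (0.04, 95% confidence interval −0.07 to 0.16). ERAP1 had 9.51, 9.59 and 9.56 with ERβ2 plasmid, against 9.59, 9.50 and 9.62 with EV. TAP2 had 10.08, 9.96 and 10.04 with ERβ2 plasmid, against 9.93, 10.06 and 9.95 with EV. For B2M, HLA-F, TAPBP and ERAP2 the log2 changes lay between −0.13 and 0.05, and the widest interval of the 9 genes was that of HLA-F, −0.26 to 0.37. The median log2 change was −0.02 for the 9 genes and −0.00 for all genes.

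The siRNA effect was then set against the plasmid effect in 1 fit over the 12 arrays. The difference passed the test as positive for 3 of the 9 genes, against 15% of all genes, and as negative for none, against 11.3%. It was 1.60 ± 0.16 on the log2 scale for CD274 (adjusted p = 2.20e-05 from limma), 0.37 ± 0.08 for ERAP1 (adjusted p = 0.00444 from limma) and 0.27 ± 0.09 for TAP1 (adjusted p = 0.0567 from limma). The call of TAP1 was lost without any 1 of 5 arrays (adjusted p = 0.103 to 0.126) and with each array centred on its median (0.15, adjusted p = 0.307). For TAP2 the difference was 0.19 (adjusted p = 0.133 from limma).

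Over the 12 arrays CD274 had the widest range of the 9 genes, 3.37 log2 units, followed by NLRC5 with 3.06 and TAP1 with 2.88, and TAPBP had the narrowest with 0.62. The mean of CD274 was 6.72 with ERβ2 siRNA, 8.33 with EV and 5.27 with control siRNA, so that ERβ2 siRNA stood between EV and control siRNA. That of ERAP1 was 8.71 with ERβ2 siRNA, 9.57 with EV and 8.35 with control siRNA, nearer to control siRNA, and that of NLRC5 was 5.17 with ERβ2 siRNA, 8.03 with EV and 5.15 with control siRNA. Pearson's r of CD274 with the other 8 genes was 0.861 (HLA-F) to 0.974 (ERAP1), and that of TAP1 with TAP2 was 0.996. Such values mainly carry the gap between the plasmid and the siRNA arrays and are given as a description of 12 arrays in 4 groups. Among 1280 genes with a range of at least 1 log2 unit, those most like CD274 were TCF4 (r = 0.996), GDF15 (0.996) and ADAMTS6 (0.994). Those most like NLRC5 were SP110, APOL6 and LGALS3BP (0.999 each, to 3 decimals), and those most like TAP1 were HLA-B, TLR3 and PARP9 (0.998 each).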

How the data were processed

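The authors deposited RMA output of the Affymetrix Expression Console as log2 values with 2 decimals, after background correction, normalization between arrays and summary into 1 value per transcript cluster. No source used here states the log base, which was taken as 2. Array medians were 5.04 to 5.14, and 3 arrays a group limit the precision. Of 33297 clusters, 19181 had 1 symbol, 2055 several and 12061 none in the annotation. Each comparison was fitted in limma 3.58.1 (R 4.3.3) on the 6 arrays of its groups over 17958 genes with no filter on low values, and p-values were adjusted over all of them (Benjamini-Hochberg). A gene passed with an adjusted p no higher than 0.1, and the difference of effects used all 12 arrays. Every member was named, with up to 4 genes per list with the largest changes among those that passed, plus the 3 genes most like each of the 3 members of widest range. CIITA, IRF1, PDCD1LG2 and IFNB1 in the siRNA comparison were named after their values were seen. The members and lists were chosen with earlier results of these data known. Alternatives covered clusters, normalization, variance prior, thresholds, the replicate block and left-out arrays. The test was tried on simulated data. Python 3.11.15 was used for tables and motif searches.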

Additional observations from a re-analysis of the deposited data

Results flagged for a closer look

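For 3 genes the effect of ERβ2 siRNA against control siRNA differed from the effect of ERβ2 plasmid against EV by a test of the difference itself in limma over the 12 arrays. For CD274 the difference was 1.60 on the log2 scale (adjusted p = 2.20e-05), with all 3 ERβ2 siRNA arrays above the control siRNA arrays and overlapping values with ERβ2 plasmid and EV. For ERAP1 it was 0.37 (adjusted p = 0.00444), and for TAP1 0.27 (adjusted p = 0.0567). The experiments also differ in nucleic acid, time, reagent, cell density and starting level (CD274 mean 8.33 with EV and 5.27 with control siRNA). These cannot be told apart from the direction of the ERβ2 change, and effects of the siRNA on other targets were not tested.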

How the results depend on the processing

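For EV against control siRNA all 9 genes passed under every alternative run, except that a fold of at least 1.5 as well left 8. For ERβ2 siRNA against control siRNA 5 passed, 4 to 5 when arrays were left out in turn, and 1 with the fold of at least 1.5. HLA-F (adjusted p = 0.0700 from limma) did not pass at an adjusted p under 0.05. TAPBP passed in some settings, as given below. CD274, ERAP1, TAP1 and TAP2 kept their direction and passed in every other setting. For ERβ2 plasmid against EV none passed in any setting. For the difference between both effects 3 passed, 2 to 3 with arrays left out, 5 with an intensity trend and robust prior, 4 without genes of a mean under 5, and 1 with the fold of at least 1.5. Centring each array on its median moved the median of all genes by −0.16 for EV against control siRNA and by −0.12 for the difference, and no other scaling moved it by over 0.1.

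Directions turned only for changes near 0 that passed in no setting. With centring, NLRC5 with ERβ2 siRNA was −0.067, B2M and ERAP1 with ERβ2 plasmid were 0.028 and 0.015, and the difference for B2M was −0.025. With 1 array left out, the log2 change with ERβ2 siRNA was −0.057 to 0.078 for NLRC5 and −0.053 to 0.262 for ERAP2, and with ERβ2 plasmid it was −0.102 to 0.058 for B2M, −0.052 to 0.0083 for ERAP1 and −0.123 to 0.147 for HLA-F. TAPBP with ERβ2 siRNA passed with the intensity trend (adjusted p = 0.0848) and with q-values (0.0580), the cause of which was not tested.

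With the replicate number as a block the counts of genes that passed were 9, 5, 0 and 3, as without it. Deviations of arrays with the same number correlated at −0.239 to 0.125 between EV and control siRNA, 0.014 to 0.223 between both siRNA groups and −0.137 to 0.104 between both plasmid groups, so the numbers were not taken to pair the samples.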
